A study of Oryza sativa with 18 samples.

Results

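P28, an indica rice variety adapted to drought that served as the donor parent in this study, was compared after 1 day of drought with its own well-watered control. The drought plants were at the tillering stage, days were counted from the point when available soil water had fallen to 20%, and soil water stood at 15% after 1 day. Both groups are top leaves of wild-type P28 plants, with no transgene or applied agent, and 2 RNA-seq libraries of each group are pooled in 1 column of FPKM (fragments mapped, scaled to transcript length and library size). The 2 groups hold 4 of the 18 libraries of the series. The others are P28 after 3 days of drought (soil water 10%) and the same 3 conditions of HHZ, the drought-sensitive recurrent parent, and of H471, a drought-tolerant backcross line that carries P28 segments in the HHZ background and shares most of its genome with HHZ.

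The file lists 39049 genes, of which 18967 (48.6%) reached an FPKM of 1 in either P28 column and were compared by log2((1 day + 1)/(control + 1)), the log2 difference. A gene is called higher or lower when this reaches 1 in either direction, the size rule. With 1 pooled column a group the difference has no standard deviation and no p-value, and the columns hold no read counts from which counting error could be set. The only replication of the treatment is over genotypes. limma (trended, with genotype and condition as terms over all 9 columns) therefore tested the 1-day response common to the 3 genotypes, and "rose" and "fell" are used only of genes with a Benjamini-Hochberg adjusted p under 0.05 in that test. Its p-values measure the spread between genotypes, HHZ and H471 are close relatives, and P28 is 1 of the 3.

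A rice leaf that dries closes its stomata and makes abscisic acid (ABA), a hormone cut from carotenoids by 9-cis-epoxycarotenoid dioxygenases. ABA binds PYL receptors, which then block clade A protein phosphatases 2C, and this frees SnRK2 kinases to activate bZIP factors that switch on dehydrins and other late embryogenesis abundant (LEA) proteins, which protect dehydrated cells. The leaf transcriptome also follows the circadian clock, in which the morning factor LHY and the evening genes TOC1, LUX and FKF1 peak at opposite times of day.

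The P28 leaf after 1 day of drought held more transcript of dehydrins, ABA enzymes, aquaporins, heat shock proteins and light-harvesting proteins than the P28 control. It held less transcript of WRKY factors, glutathione S-transferases, wall-associated kinases and ribosomal proteins. By the size rule 2509 genes were higher (13.2% of those compared) and 3056 were lower (16.1%), 5565 in all (29.3%). The median log2 difference over all genes was -0.02, the quartiles were -0.63 and 0.50, and 434 genes were higher and 393 lower by at least 3. The test over the 3 genotypes called 27.4% of 20568 genes as having risen and 30.8% as having fallen, with 62.7% at an unadjusted p under 0.05. It includes the P28 columns that chose the genes, so it was also fitted to HHZ and H471 alone, where it called 22% of the 20568 genes higher and 25.7% lower. In that fit 2233 of the 2509 genes higher in P28 and 2540 of the 3056 lower in P28 were called in the same direction, and 4 and 10 in the opposite one.

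**Figure D1:**
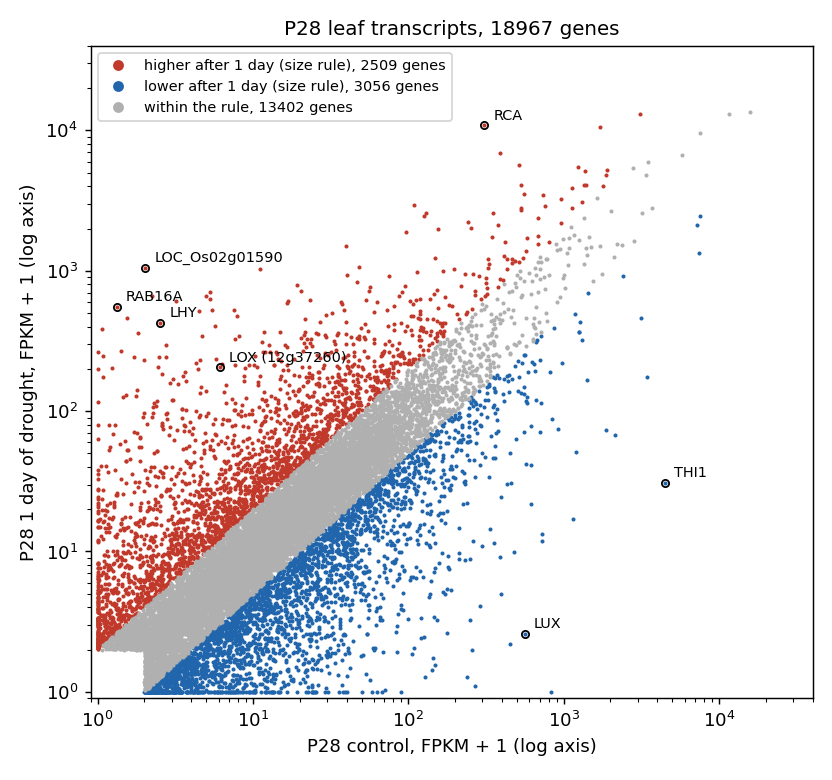
Pooled FPKM + 1 of 18967 genes in P28 after 1 day of drought (vertical, log axis) and in the P28 control (horizontal, log axis), with the 2509 higher genes in red, the 3056 lower genes in blue and the rest in grey. RCA, RAB16A, LHY, a lipoxygenase (LOC_Os12g37260) and LOC_Os02g01590 lie far above the diagonal, and LUX and THI1 far below it.

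The FPKM of the P28 columns summed to 984323 after 1 day and 816186 in the control, and the 10 most abundant genes took 18.2% and 16.9% of these sums. The leaf identity held in both columns: RbcS (LOC_Os12g17600), the small subunit of Rubisco, had 4826 FPKM after 1 day and 3381 FPKM in the control, while the meristem gene OSH1 and the root gene RCc3 were listed at 0 in both. Of 5 markers of other organs only MADS1, a floral factor, passed the filter, with 2.98 FPKM after 1 day and 1.20 FPKM in the control. The summed FPKM of the 7 leaf markers was 33248 after 1 day and 10268 in the control, so leaf-specific transcripts differed with the contrast themselves, and in such bulk leaf samples fewer cells of a type and less RNA per cell cannot be told apart. Lhcb1 (LOC_Os01g52240), one of 3 near-identical antenna genes, was listed at 0 in all 9 columns although its copies had 1237 FPKM or more in both P28 columns, so a 0 can be a failed estimate and is given only as listed.

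Clock genes had some of the largest differences of all. LHY (LOC_Os08g06110), the morning factor, had 426 FPKM after 1 day of drought and 1.53 FPKM in the P28 control. LUX (LOC_Os01g74020), a part of the evening complex, had 1.59 FPKM after 1 day and 560 FPKM in the control. The 2 genes thus lay at opposite ends, and in HHZ and H471 too the 1-day column was above 350 FPKM for LHY and under 1.2 FPKM for LUX. LHY rose by 7.18 ± 0.17 and LUX fell by 7.84 ± 0.10 on the log2 scale over the 3 genotypes (limma, ± SE, adjusted p = 6.4e-07 and 1.8e-07). TOC1, the evening pseudo-response regulator that represses LHY, had 5.86 FPKM after 1 day and 86.6 FPKM in the control, and FKF1, a blue-light photoreceptor, had 0.935 and 67.5 FPKM. PRR37 and PRR73, which are expressed by day, were higher, with log2 differences of 2.14 and 1.49. GI (GIGANTEA), at 350 FPKM after 1 day and 536 FPKM in the control, stayed within the rule.

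Of the 14 clock genes 3 were higher and 5 lower, beside 13.2% and 16.1% of all genes. After 3 days P28 held 17.3 FPKM of LHY, 90.4 of LUX and 104 of TOC1, values on the control side of the 1-day column. Other genes with a known daily rhythm were also far lower. COR27, an evening-phased clock repressor in Arabidopsis, had 0.1003 FPKM after 1 day and 269 FPKM in the control, and THI1, the thiazole-forming enzyme of vitamin B1 synthesis, had 30.0 and 4461 FPKM. THIC, which makes the pyrimidine moiety of the same vitamin, had 10.9 FPKM after 1 day and 726 FPKM in the control. The hour at which leaves were taken is not given in the sources used here, so drought and time of day cannot be told apart in this contrast, and the part of the hour in the results that follow was not tested.

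**Figure D2:**
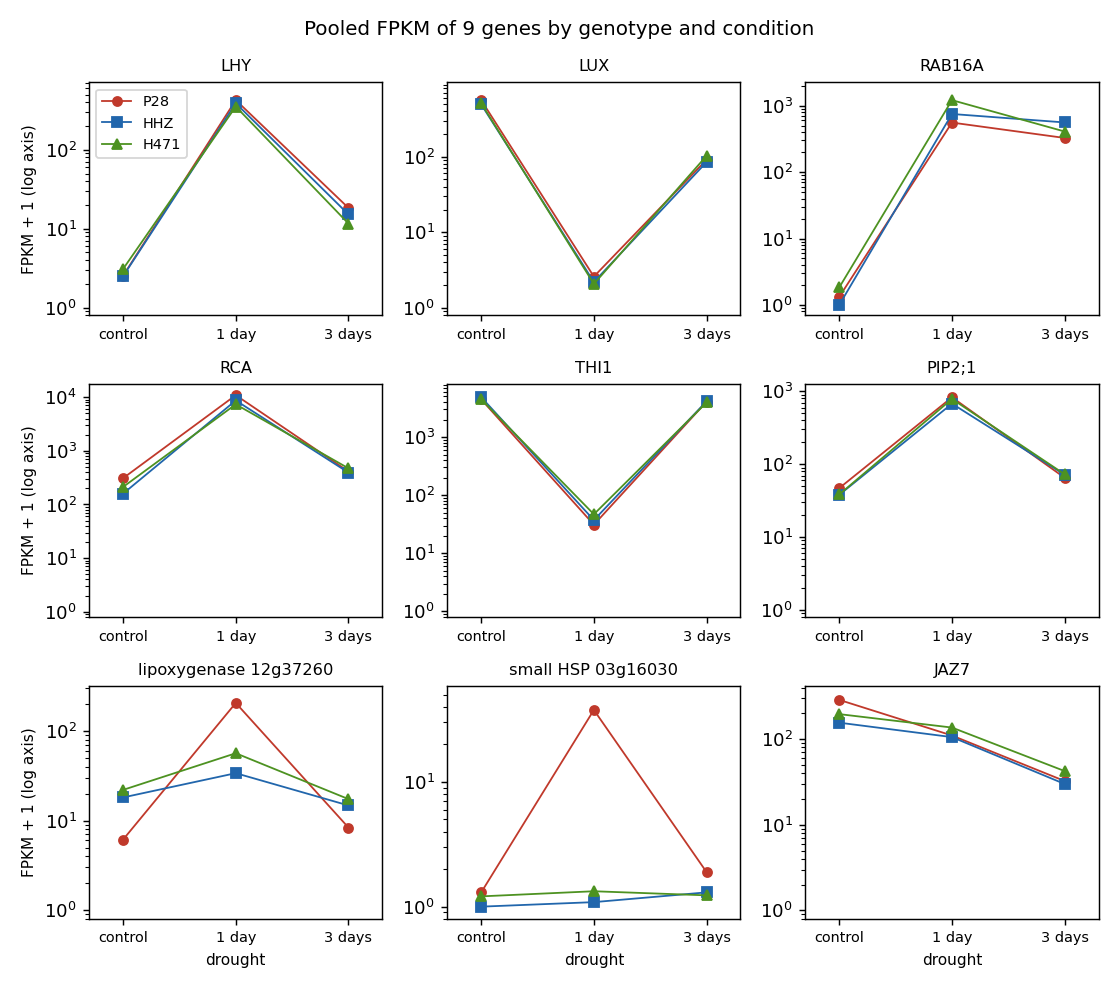
FPKM + 1 (log axis) of 9 genes in well-watered leaves and on days 1 and 3 of drought, with 1 line for each genotype (P28 red circles, HHZ blue squares, H471 green triangles) and 1 pooled value a point. LHY, LUX, RAB16A, RCA, THI1 and PIP2;1 ran in the same direction in the 3 genotypes. After 1 day RAB16A was at 556 FPKM in P28, 749 FPKM in HHZ and 1211 FPKM in H471. The lipoxygenase LOC_Os12g37260 and the small heat shock protein LOC_Os03g16030 peaked in P28, at 205 and 36.8 FPKM after 1 day.

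Dehydrins and LEA proteins formed the list with the largest median difference among the ABA-related lists. RAB16A (LOC_Os11g26790), an ABA-induced dehydrin, had 556 FPKM in P28 after 1 day and 0.323 FPKM in the P28 control. RAB16B, its neighbour on chromosome 11, had 386 FPKM after 1 day and 0.0712 FPKM in the control. LEA3-1 had 128 FPKM after 1 day and 0.512 FPKM in the control, and the acidic dehydrin DHN1 had 178 and 14.3 FPKM. The 2 columns thus stand far apart for each of these genes, and RAB16D and LEA3-2 had 21.1 and 2.85 FPKM after 1 day and were listed at 0 in the control. All 8 members kept of 9 listed were higher, and their median log2 difference was 4.27, beside -0.02 over all genes, and all 8 rose in the test over the 3 genotypes (RAB16A by 9.21 ± 0.27, adjusted p = 9.0e-07). EM1, a LEA protein of seeds, did not pass the filter, at 0.222 FPKM after 1 day and 0.106 FPKM in the control. The RAB16 genes are near copies of each other, so the split of reads among them is uncertain. Their summed FPKM with the rest of the list was 1315 after 1 day and 17.0 in the control, and 514 in P28 after 3 days.

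Most genes listed for ABA synthesis and breakdown were higher. NCED1 (LOC_Os02g47510) had 402 FPKM after 1 day and 72.6 FPKM in the control. It is a member of this dioxygenase family by its listed name, but its best Arabidopsis match carries the symbol CCD4, and its part in ABA synthesis was not tested. NCED3, the drought-induced dioxygenase that limits ABA synthesis, had 15.5 FPKM after 1 day and 0.945 FPKM in the control. NCED4 had 35.9 FPKM after 1 day and 0.174 FPKM in the control. On the other side of the balance, ABA8ox1, an ABA 8′-hydroxylase that inactivates the hormone, had 25.0 and 4.44 FPKM, and its relatives ABA8ox2 and ABA8ox3 had 66.4 and 20.9 FPKM after 1 day, against 29.1 and 5.30 FPKM in the control. Of 8 genes 6 were higher and none lower, with a median of 2.03. NCED5 (4.54 FPKM after 1 day, 5.72 FPKM in the control) and the zeaxanthin epoxidase ZEP1 (292 and 152 FPKM) stayed within the rule.

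The signalling steps that follow ABA were not uniform. Among the clade A phosphatases, the brakes of the pathway and themselves ABA targets, 7 of the 9 in the file were higher and none lower, with a median of 2.43. PP2C49 had 60.7 FPKM after 1 day and 0.504 FPKM in the control, and PP2C09 had 333 and 45.5 FPKM. Only PP2C08 and PP2C53 stayed within the rule, at log2 differences of 0.29 and 0.96. The PYL receptors went both ways: PYL10 had 43.5 FPKM after 1 day and 19.7 FPKM in the control, while PYL6 had 1.77 and 11.2 FPKM and PYL11 had 26.7 and 55.6 FPKM. The SnRK2 kinases split likewise into 3 higher and 3 lower of 10. SAPK4 had 52.3 FPKM after 1 day and 7.42 FPKM in the control, whereas SAPK9, close to the Arabidopsis stomatal kinase OST1, had 23.9 and 160 FPKM and SAPK2 had 38.0 and 186 FPKM. These 3 higher and 3 lower kinases, and the 7 higher phosphatases, were past the rule in all 3 genotypes.

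Transcription factors of the ABA response included bZIP and NAC proteins that were higher. bZIP23, a main activator of drought genes in rice, had 161 FPKM after 1 day and 21.3 FPKM in the control, bZIP12 had 138 and 17.0 FPKM, and bZIP72 had 92.8 and 13.4 FPKM. NAC10 had 20.5 FPKM after 1 day and 0.154 FPKM in the control, a log2 difference of 4.22, the largest of the list. The best known stress NAC genes differed little in P28: SNAC1 had 185 FPKM after 1 day and 156 FPKM in the control, NAC6 had 225 and 184 FPKM, and NAC5 had 38.2 and 27.6 FPKM. DREB2A and DREB2B, which bind the dehydration-responsive element, had log2 differences of -0.08 and -0.78. Of 16 factors kept, 7 were higher and none lower, and the median was 0.58. In HHZ and H471 the log2 difference of SNAC1 was 1.20 and 1.20, beside 0.25 in P28, but the difference between P28 and the others did not pass the test (limma, adjusted p = 0.57).

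**Figure D3:**
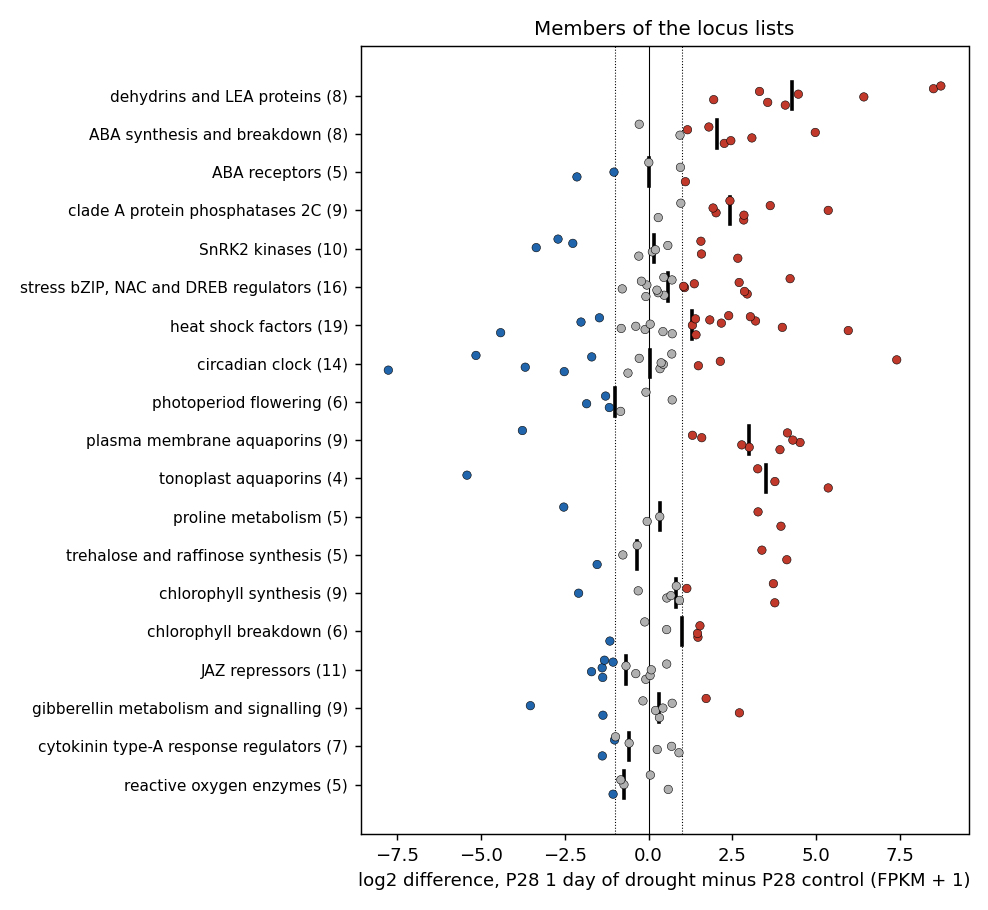
Log2 difference of each member of 19 lists of known rice genes (P28 after 1 day of drought minus P28 control, on FPKM + 1), with red points higher, blue points lower and grey points within the size rule, black bars at the list medians and the number of members kept in brackets. All 8 dehydrins and LEA proteins and 8 of 9 plasma membrane aquaporins lie right of the dotted line at 1, and the clock genes spread from -7.76 to 7.40.

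Aquaporins, the water channels of plasma membrane (PIP) and vacuole (TIP), were among the most abundant genes that differed. PIP1;2 had 2579 FPKM in P28 after 1 day and 130 FPKM in the P28 control. PIP1;1 had 2030 FPKM after 1 day and 252 FPKM in the control. PIP2;1 had 828 FPKM after 1 day and 46.0 FPKM in the control. Of 9 PIP genes kept of 11 listed, 8 were higher, with a median of 3.00, and their summed FPKM was 6084 after 1 day, 1059 in the control and 1001 in P28 after 3 days. The exception was PIP2;7, at 41.2 FPKM after 1 day and 571 FPKM in the control, 13.9-fold lower. The vacuolar channels TIP1;1, TIP1;2 and TIP2;2 were higher, with TIP1;2 at 785 FPKM after 1 day and 18.2 FPKM in the control, and TIP4;1 was lower, at 8.10 and 387 FPKM. The same 8 PIP genes were higher, and PIP2;7 lower, in all 3 genotypes, and PIP transcripts are known to vary over the day.

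Genes for compatible solutes were higher at the synthetic step. P5CS1 (LOC_Os05g38150) and P5CS2, the enzymes that limit proline synthesis, had 248 and 87.4 FPKM after 1 day, against 24.9 and 4.72 FPKM in the control. Proline dehydrogenase, which breaks proline down, was lower, at 6.01 FPKM after 1 day and 39.4 FPKM in the control, and the reductase P5CR did not differ by the rule, at 26.3 and 27.1 FPKM. Galactinol synthases, which open the raffinose pathway, were higher: GolS1 had 287 FPKM after 1 day and 15.5 FPKM in the control, and GolS2 had 49.1 and 3.81 FPKM. The trehalose genes TPS1 and TPP2 stayed within the rule, and TPP1 was lower at 0.496 and 3.33 FPKM.

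Heat shock factors switch on chaperones when proteins unfold, and both groups were higher on balance. HSFA2d (LOC_Os03g06630) had 176 FPKM after 1 day and 10.1 FPKM in the control, HSFA2c had 108 and 19.8 FPKM, and HSFB2c had 261 and 30.9 FPKM. HSFC2a had 78.9 FPKM after 1 day and 0.287 FPKM in the control, while its relative HSFC1b had 0.852 and 38.4 FPKM. Of 19 factors kept of 25 listed, 10 were higher (52.6%) and 3 lower (15.8%), beside 13.2% and 16.1% of all genes. The same 10 and 3 were past the rule in all 3 genotypes. The small heat shock protein LOC_Os02g54140, a holdase that keeps unfolded proteins soluble, had 657 FPKM after 1 day and 1.25 FPKM in the control. Of 31 small heat shock proteins 14 were higher (45.2%) and 2 lower (6.45%). Of 23 HSP70, HSP90 and HSP101 proteins 11 were higher (47.8%) and 3 lower (13.0%). The cytosolic HSP70 LOC_Os03g16920 had 54.8 FPKM after 1 day and 0.202 FPKM in the control. The endoplasmic reticulum chaperones BIP2 (LOC_Os02g02410) and HSP90-7 (LOC_Os06g50300) had 119 and 191 FPKM after 1 day, against 661 and 656 FPKM in the control. The cytosolic HSP70 was thus higher and this pair lower, and both BIP2 and HSP90-7 fell over the 3 genotypes (adjusted p = 1.5e-05 and 0.00014).

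Photosynthesis genes made up the largest block of abundant transcript that was higher. RCA (LOC_Os11g47970), Rubisco activase, had 10892 FPKM in P28 after 1 day and 307 FPKM in the P28 control. LHCB2 (LOC_Os03g39610), an antenna protein of photosystem II, had 2222 FPKM after 1 day and 243 FPKM in the control, and phosphoribulokinase (LOC_Os02g47020), which regenerates the Rubisco substrate, had 1734 and 345 FPKM. Of 69 photosystem and light-harvesting genes 35 were higher (50.7%) and 6 lower (8.70%), with a median log2 difference of 1.12. Their summed FPKM was 86203 after 1 day, 26394 in the control and 23515 in P28 after 3 days. The 3 RbcS genes differed less, with log2 differences between 0.51 and 0.90. Among the lower photosystem genes, the photosystem I P subunit LOC_Os10g39150 had 216 FPKM after 1 day and 642 FPKM in the control, and was lower in all 3 genotypes. LOC_Os04g16770, also lower, is described as photosystem II protein A, and LOC_Os10g21268, of the Calvin cycle list, as a Rubisco large chain. Plants encode the latter 2 proteins in the plastid, so reads of plastid RNA and of LOC_Os04g16770 and LOC_Os10g21268 may not be told apart. The direction of these 2 loci differed between genotypes, with log2 differences of -2.12 and -1.52 in P28 and 1.89 and 1.74 in H471.

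Chlorophyll genes followed in part. CHLH, a subunit of magnesium chelatase, had 354 FPKM after 1 day and 25.1 FPKM in the control, and CAO1, which makes chlorophyll b, had 307 and 22.3 FPKM. PORA, the light-dependent reductase of seedlings, was lower, at 6.88 FPKM after 1 day and 32.4 FPKM in the control, and its level differed little in HHZ, at 24.6 FPKM after 1 day and 25.3 FPKM in the control. Of the breakdown genes SGR, the stay-green regulator, had 46.4 FPKM after 1 day and 15.4 FPKM in the control and PAO had 97.3 and 34.4 FPKM, and after 3 days P28 held 110 and 153 FPKM of them. NYC1, which reduces chlorophyll b, was lower at 88.99 and 199 FPKM.

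The largest differences included genes outside these pathways. LOC_Os02g01590, a glycosyl hydrolase of family 32, the family of invertases and fructan enzymes, had 1051 FPKM after 1 day, 1.03 FPKM in the control and 4.68 FPKM in P28 after 3 days. EGY3 (LOC_Os03g51920), a match to a plastid protease-like protein, had 461 FPKM after 1 day and 0.555 FPKM in the control, and FTSH6, a plastid protease, had 174 and 0.0877 FPKM. LOC_Os12g08760, described as a phosphoenolpyruvate carboxylase, had 244 FPKM after 1 day and 0.0851 FPKM in the control. The plastid β-amylase BAM1 (LOC_Os10g32810), which degrades starch, had 705 and 4.32 FPKM. All 15 of the largest increases among described genes had a log2 difference of at least 6.85 in P28 and at least 5.04 in HHZ and H471. Lipid-transfer proteins supplied 2 of the 15, LOC_Os05g47700 (243 FPKM after 1 day, 0.715 FPKM in the control) and LOC_Os05g47730 (115 FPKM after 1 day, listed at 0 in the control). Of 39 such genes 14 were higher (35.9%) and 6 lower (15.4%), beside 13.2% and 16.1% of all genes. A pair of linker histones, HIS1-3 matches of the drought-induced H1 type in Arabidopsis, were higher too: LOC_Os04g18090 had 2794 FPKM after 1 day and 534 FPKM in the control, and LOC_Os06g04020 had 1034 and 197 FPKM.

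Defence-related families had more members lower than higher. The WRKY40 matches LOC_Os09g25060 and LOC_Os09g25070, adjacent genes for pathogen- and wound-induced repressors, had 2.26 and 1.60 FPKM after 1 day, against 248 and 175 FPKM in the control. Of 61 WRKY genes 3 were higher (4.92%) and 27 lower (44.3%), with a median of -0.89, and 22 of the 27 were lower in all 3 genotypes. CML42, a calmodulin-like protein, had 4.00 FPKM after 1 day and 397 FPKM in the control. The peroxidase LOC_Os07g48050 had 0.428 and 140 FPKM. Of 45 class III peroxidases, which act in the cell wall, 11 were higher (24.4%) and 21 lower (46.7%), with a median of -0.50. Both shares were above those of all genes, 13.2% and 16.1%. Of 53 glutathione S-transferases, detoxifying enzymes, 27 were lower (50.9%) and 8 higher (15.1%), with a median of -1.19. Among them LOC_Os10g38360 was listed at 0 after 1 day and at 21.5 FPKM in the control. NB-ARC immune receptors were close to the background of 16.1%, with 38 of 199 lower (19.1%), and 14 higher (7.04%).

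**Figure D4:**
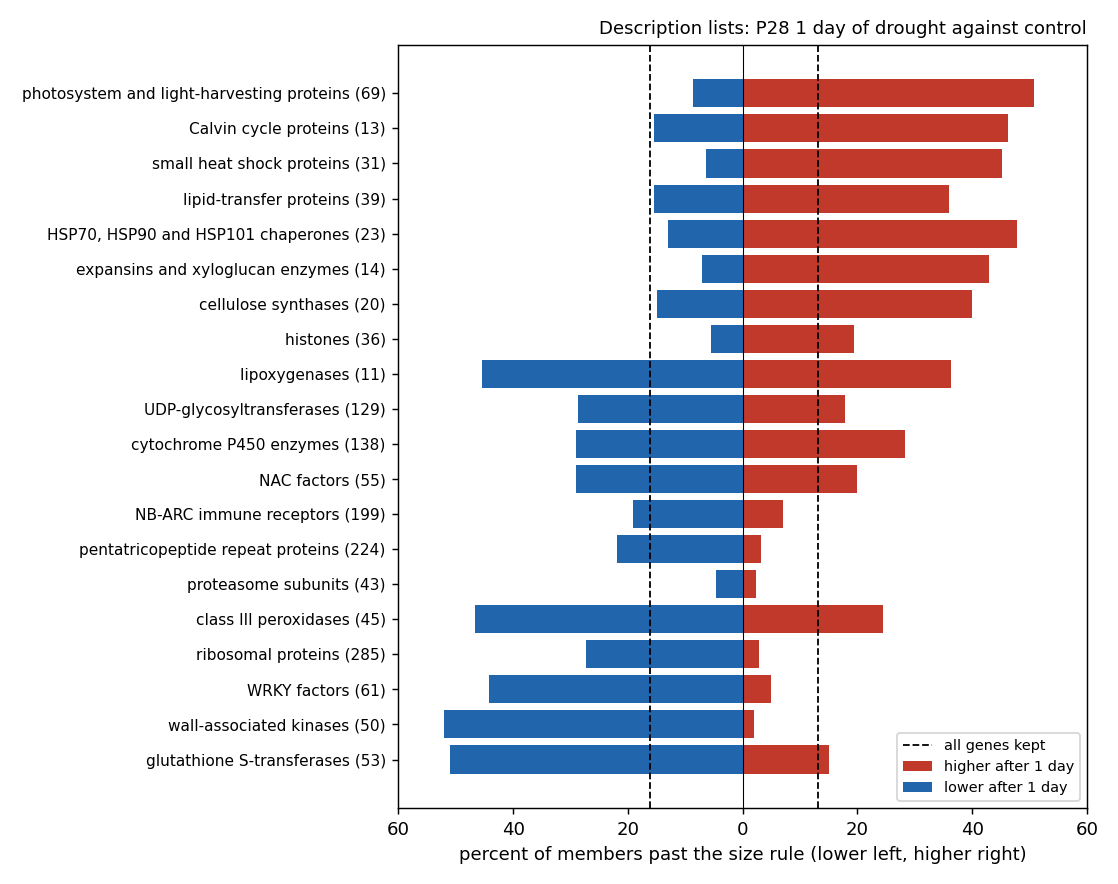
Percent of the members of 20 lists, built from the descriptions in the file, that were higher (red, to the right) or lower (blue, to the left) in P28 after 1 day of drought than in the P28 control, with the number of members kept in brackets and dashed lines at 13.2% and 16.1%, the shares of all genes. Photosystem genes reach 50.7% higher, and wall-associated kinases 52.0% lower.

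Large enzyme families had members on both sides. Of 138 cytochrome P450 enzymes, which oxidise hormones and defence compounds, 39 were higher (28.3%) and 40 lower (29.0%), beside 13.2% and 16.1% of all genes. Of 129 UDP-glycosyltransferases, which attach sugars to such compounds, 23 were higher (17.8%) and 37 lower (28.7%). The P450 LOC_Os03g39760 had 76.8 FPKM after 1 day and 1.61 FPKM in the control, while LOC_Os01g43750, a CYP72A15 match, had 2.33 and 98.1 FPKM. Both families had medians near 0, at -0.11 and -0.01. NAC factors, a plant family active in stress and wall formation, were likewise split, with 11 of 55 higher (20%) and 16 lower (29.1%). The NAC047 match LOC_Os12g03040 had 25.4 FPKM after 1 day and 0.716 FPKM in the control, and the NAC042 match LOC_Os07g04560 had 0.598 and 20.4 FPKM.

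Wall-building genes had more calls on the higher than on the lower side. Of 95 expansins and xyloglucan enzymes in the file, which loosen and join wall polymers, only 14 were kept, with 6 higher and 1 lower and a median of 0.54, which is -0.08 over the 42 members listed above 0 when the filter is left out. The XTH25 match had 11.3 FPKM in P28 after 1 day, 0.0766 FPKM in the control and 40.6 FPKM after 3 days. Of 20 cellulose synthases and relatives 8 were higher and 3 lower, led by a CSLE1 match at 75.6 FPKM after 1 day and 1.94 FPKM in the control. The CESA4 match, a subunit for secondary walls, had 7.04 and 0.535 FPKM.

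Ribosomal protein genes were lower as a group by small amounts. Of 285 kept, 78 were lower (27.4%) and 8 higher (2.81%), the median log2 difference was -0.79 and the summed FPKM was 40322 after 1 day and 51384 in the control. The test over the 3 genotypes called 203 of the 285 as having fallen and 29 as having risen, beside 30.8% and 27.4% of all genes tested. Only 12 were lower by the size rule in all 3 genotypes. The members that were higher include 2 of the L12/ClpS type, LOC_Os08g33540 (185 FPKM after 1 day, 21.99 FPKM in the control) and LOC_Os01g61700 (33.7 and 3.54 FPKM). Proteasome subunits had a median of -0.47, with 40 of 43 within the rule. Pentatricopeptide repeat proteins, which process organelle RNA, were lower in 49 of 224 and higher in 7, but among those with an FPKM of at least 5 only 11 were lower and the median was 0.13.

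Genes of jasmonate, gibberellin and cytokinin had differences on both sides. JAZ proteins repress jasmonate responses and are induced by the hormone. JAZ7 (LOC_Os07g42370) had 109 FPKM after 1 day and 286 FPKM in the control, and JAZ12 had 23.6 and 60.3 FPKM. Of 11 JAZ genes 5 were lower (45.5%, beside 16.1% of all genes) and none higher. Their median was -0.67, beside 0.19 in HHZ and -0.33 in H471. P28 had the lowest of the 3 differences in 10 of the 11 JAZ genes, beside 35.3% of all genes. The P28 test called none of them (smallest adjusted p = 0.32), and P28 controls were above HHZ controls for JAZ7, at 286 and 155 FPKM. Among lipoxygenases, which start jasmonate synthesis in the plastid, LOC_Os08g39840 and LOC_Os08g39850 had 4.40 and 6.60 FPKM after 1 day, against 176 and 147 FPKM in the control, and LOC_Os02g10120 had 245 and 9.35 FPKM. Of 9 genes of gibberellin metabolism and signalling kept, 2 were higher and 2 lower (22.2% each, beside 13.2% and 16.1% of all genes), with a median of 0.32. GA20ox2, a gibberellin synthesis gene known as the semi-dwarf locus, had 48.0 FPKM after 1 day and 6.48 FPKM in the control. The gibberellin-inactivating GA2ox genes went both ways. GA2ox6 had 0.0655 FPKM after 1 day and 11.2 FPKM in the control, and GA2ox3 had 0.175 and 2.01 FPKM. GA2ox5 was higher, at 11.2 and 2.71 FPKM. The type-A response regulators of cytokinin had 2 of 7 lower, RR4 (23.8 FPKM after 1 day, 63.4 FPKM in the control) and RR9 (18.3 and 38.0 FPKM).

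The 1-day differences of P28 resembled those of HHZ and H471, with which they share no column. Across the 18967 genes Pearson's r was 0.909 between P28 and HHZ and 0.906 between P28 and H471, beside 0.929 between HHZ and H471. Genes are not independent replicates and the same alignment made all columns, so r is a description. By the size rule 13.2% of these genes were higher and 16.1% lower in P28, against 12.6% and 13.4% in HHZ and 13.1% and 13.5% in H471. All were chosen on their P28 level, and the HHZ and H471 shares are over these same genes. Of the 2509 genes higher in P28, 1812 were also higher in both other genotypes, 341 in 1 of them and 356 in neither. Of the 3056 lower genes, 1826 were lower in both, 556 in 1 and 674 in neither. The genes past the rule in P28 alone lay near its edge, with median log2 differences of 1.17 and -1.22 in P28 and 0.63 and -0.57 in the mean of the others, and 269 of the 356 and 492 of the 674 moved the same way in both other genotypes.

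The difference between the P28 response and the mean response of HHZ and H471 was tested in limma with a term for P28 on each day, which leaves 2 residual degrees of freedom. It called 0 of 20568 genes (0%), with 1794 (8.72%) at an unadjusted p under 0.05 and a smallest adjusted p of 0.077. Without the trend it called 11, and without the filter on low values 83, and 2 of the genes described next, LOC_Os12g37350 and LOC_Os01g36720, passed under both of these settings. The P28 values that follow are therefore descriptions. SE and p-values of the P28 test rest on the spread between HHZ and H471, which are close relatives. With 1 pooled column a condition, P28 adds no replicate error to them. Of the 10 described genes with the smallest p, 8 were under 1 FPKM in all 4 control and 1-day columns of HHZ and H471, so the comparison there is with genes hardly detected in the other genotypes, and whether their reads could be aligned was not tested.

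**Figure D5:**
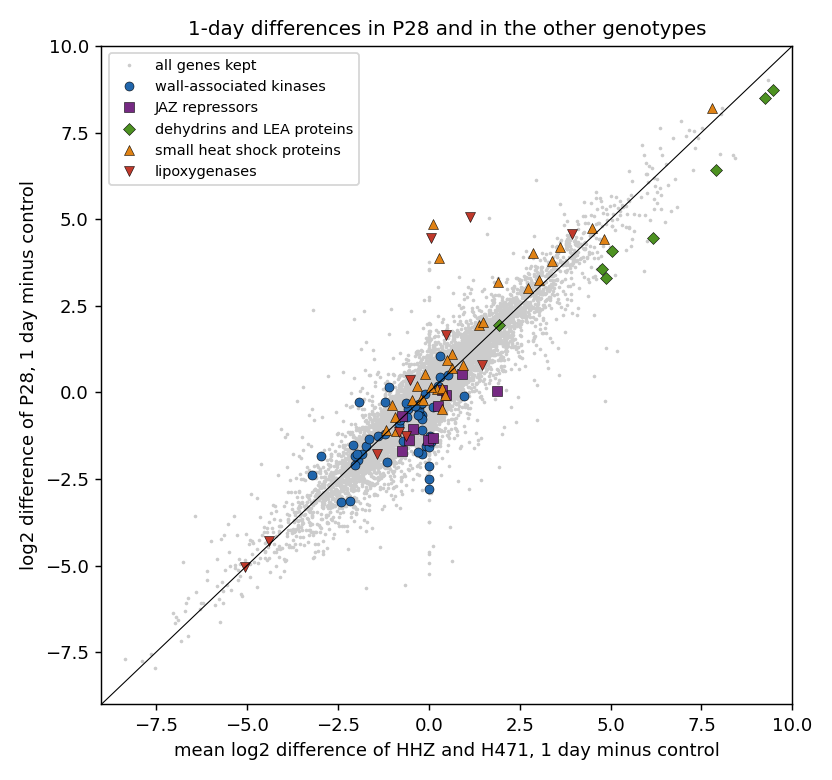
Log2 difference after 1 day of drought in P28 (vertical) against the mean of HHZ and H471 (horizontal) for 18967 genes (grey) and 5 lists (coloured), with the line of equal differences. Most genes follow the line, 7 of 8 dehydrins and LEA proteins lie below the difference of both other genotypes, and 2 lipoxygenases and 2 small heat shock proteins lie far above it.

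The chromosome 12 lipoxygenases LOC_Os12g37260 and LOC_Os12g37350 stood apart in P28. LOC_Os12g37260 had 205 FPKM in P28 after 1 day and 5.12 FPKM in the P28 control, and 7.35 FPKM in P28 after 3 days. In HHZ it had 32.9 FPKM after 1 day and 17.1 FPKM in the control, and in H471 55.5 and 21.02 FPKM. Its neighbour LOC_Os12g37350 had 49.7 FPKM in P28 after 1 day and 1.32 FPKM in the control, and was listed at 0 in both HHZ columns and at 0.0809 and 0 FPKM in H471. A further gene of this stretch, LOC_Os12g37320, chosen after its values were seen, had 2.81 and 0.198 FPKM in P28. It was called in the test over the 3 genotypes, a call lost without H471, and is not counted here as set apart in P28. The log2 difference of P28 exceeded that of the others by 3.94 ± 0.27 for LOC_Os12g37260 and by 4.39 ± 0.19 for LOC_Os12g37350 (SE, adjusted p = 0.12 and 0.077). All 3 are described as matches of the Arabidopsis plastid enzyme LOX2, and reads may be shared among such copies.

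Small heat shock proteins of chromosome 3 showed a like pattern. LOC_Os03g16030 had 36.8 FPKM in P28 after 1 day and 0.299 FPKM in the P28 control, while no HHZ or H471 column of the control or 1 day exceeded 0.329 FPKM. LOC_Os03g16020, chosen after its values were seen, had 55.5 FPKM after 1 day and 2.86 FPKM in the control of P28, against 1.65 and 1.69 FPKM in HHZ. Another neighbour, LOC_Os03g16040, also chosen after its values were seen, was higher in every genotype, at 77.9 FPKM after 1 day and 7.69 FPKM in the control of P28 and at 42.6 and 12.01 FPKM in HHZ. LOC_Os09g09930, described as a heavy metal transport protein, was higher in every genotype too, with log2 differences of 6.13 in P28, 2.89 in HHZ and 3.02 in H471 (difference 3.18 ± 0.12, adjusted p = 0.077). The nitrate transporter match NRT2.7 (LOC_Os01g36720) had 16.0 FPKM in P28 after 1 day, 0.240 FPKM in the P28 control and 0 in the HHZ and H471 columns.

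Dehydrins and galactinol synthases went the other way. The log2 difference of P28 was the smallest of the 3 genotypes for 7 of the 8 dehydrins and LEA proteins, with a median of 4.27 in P28, 5.58 in HHZ and 5.84 in H471, beside 35.3% of all genes with the smallest difference in P28. RAB16A had 556 FPKM after 1 day in P28, against 749 FPKM in HHZ and 1211 FPKM in H471, and DHN1 had 178 FPKM in P28, against 395 and 441 FPKM. For GolS2 the 1-day level was 49.1 FPKM in P28, 103 FPKM in HHZ and 128 FPKM in H471, and the log2 difference of P28 was lower by 1.74 ± 0.23 (adjusted p = 0.26). At an unadjusted p under 0.05 the P28 test named 4 of the 8 dehydrins and LEA proteins, all lower in P28, and after adjustment none (smallest adjusted p = 0.36).

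Wall-associated kinases, receptor-like kinases that bind pectin, had 26 of 50 lower (52.0%) and 1 higher in P28. LOC_Os02g42150 had 8.88 FPKM after 1 day and 85.9 FPKM in the control, and LOC_Os02g02120 had 1.20 and 18.7 FPKM. The median log2 difference was -1.14 in P28, -0.42 in HHZ and -0.43 in H471. Leaving out the genes under 1 FPKM in all 4 control and 1-day columns of the other genotypes brought the medians closer, to -0.94 in P28, -0.78 in HHZ and -0.79 in H471 over 41 genes, of which 20 were lower in P28 and 17 in either other genotype. WAK2 (LOC_Os08g29020), with 1.15 FPKM after 1 day and 13.7 FPKM in the control of P28, is one of those hardly detected in HHZ and H471.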

How the data were processed

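RNA of tillering-stage rice leaves was depleted of ribosomal RNA and sequenced in 100-base pairs. The authors trimmed adaptors and low-quality bases, aligned reads to the MSU RGAP rice genome with TopHat and deposited FPKM values from Cufflinks, which corrected for sequence bias and shared out multiply aligned reads. Their versions were not given in the sources used here. Per the labels, RNA of independent replicates was pooled within a treatment, and each of the 9 deposited FPKM columns combines 2 libraries. The study states read totals for each library, which were not used here, and says that uniquely matching reads were kept, so how reads of near copies were treated is not settled. The table holds no counts per gene and combines libraries, so counting error could not be set. Descriptions and symbols in the file are best Arabidopsis matches.

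The P28 column after 1 day of drought was compared with the P28 control by log2(FPKM + 1) over genes that reached an FPKM of 1 in either. With a pseudocount of 1, differences of genes near 1 FPKM are understated. A difference of at least 1 is the size rule. limma 3.58.1 in R 4.3.3, with a trend and Benjamini-Hochberg adjustment at 0.05, tested the 1-day response over 9 columns with terms for genotype and condition (4 residual degrees of freedom) and the difference between P28 and the mean of HHZ and H471 (2 residual degrees of freedom), in genes that reached 1 FPKM in any column. Both were run on simulated data with independent noise of equal size in every column. Real columns can differ from that, so the simulation does not show how well the p-values hold here. Python 3.11.15, pandas 2.3.3 and matplotlib 3.10.9 were used for the rest.

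The 24 lists of known rice loci and 20 lists matched to words in the descriptions, and the comparison itself, were chosen with earlier results of these data known. The word patterns were set to respect case, and 2 lists (U-box proteins and cyclins) were dropped, after their matches in the file had been read, because many matches were to other proteins. Named genes were the 15 largest differences in each direction among described genes that reached 10 FPKM in either P28 column, every member of the locus lists, the 2 largest and 2 smallest differences of each description list among members that reached 5 FPKM, and the 10 smallest p-values of the P28 test among described genes that reached 10 FPKM in P28. Alternatives were a pseudocount of 0.1, no filter, a minimum of 5 FPKM, median-ratio scaling, a size rule of 2, no trend, no 3-day columns and leaving out each genotype. Sequences were not used here.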

Additional observations from a re-analysis of the deposited data

How the results depend on the processing

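Direction and order of size of the main counts held under most settings. A size rule of 2 in place of 1 left 2004 genes, 978 higher and 1026 lower, where the rule of 1 gave 5565. Counts under a pseudocount of 0.1, no filter, a minimum of 5 FPKM or median-ratio scaling were between 4430 and 6761. The count over the 3 genotypes was between 8942 and 9818 when a genotype was left out (without HHZ 8942), against 11981 with all. The P28 test called 83 genes (24 with a larger difference in P28, 59 with a smaller one) without the filter and 11 (4 and 7) without the trend, and 0 under the other settings, where 1634 to 1801 genes had an unadjusted p under 0.05. Medians of 8 lists changed sign under some setting. One was past the size rule, glyoxylate cycle and gluconeogenesis, at 0.0076 over 4 members without the filter and -1.97 for the 1 member kept (PEPCK1). Without the filter expansins and xyloglucan enzymes went to -0.08 and markers of other organs to -0.04. At a minimum of 5 FPKM the medians were 1.52 for trehalose and raffinose synthesis, -0.40 for lipoxygenases, -0.51 for ABA receptors, 0.13 for pentatricopeptide repeat proteins and 0.20 for UDP-glycosyltransferases (0.02 with scaling). Among the named genes the test over genotypes lost 24 calls without HHZ, 14 without P28 and 16 without H471. SGR lost its call in each case, SNAC1, NAC6, JAZ10 and LOC_Os12g37260 without HHZ or H471, and JAZ7 and NAC5 without HHZ. No paired analysis was possible because each group is 1 pooled column with no replicate of its own, so replicate numbers carry no columns. Pooling leaves the spread between plants unmeasured, and without counts the error of low values is not known.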

Other observations

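Genes of fat use, the glyoxylate cycle, were at the floor in P28 after 1 day and high only later. ICL, isocitrate lyase, had 0.0275 FPKM in the P28 control, 0.519 FPKM after 1 day and 74.6 FPKM after 3 days. MLS, malate synthase, had 0.562, 0.337 and 74.9 FPKM in the same order. PEPCK1, which draws carbon from this cycle towards sugars, had 69.3 FPKM after 1 day and 274 FPKM in the control. Photoperiod flowering genes were low throughout: Hd3a, the rice florigen, had 1.95 FPKM in P28 after 1 day and 5.63 FPKM in the control, and the HHZ and H471 controls had 0.416 and 0.262 FPKM. Hd1, a floral regulator, had 1.16 FPKM after 1 day and 6.77 FPKM in the P28 control. These genes were either under the filter or without a replicate in P28, so the values are descriptions.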
